A study of Mus musculus with 10 samples.

Results

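The genes described here are 9 cytokine genes of T cell effector function, namely Csf2, Ifng, Tnf, Lta, Ltb, Il2, Il3, Il10 and Il21. They were taken by exact symbol from a table of normalized gene counts, in which 9 of 9 were found among 17363 named genes. RNA was sequenced from CD4+CD25- T cells sorted out of breast tumours of C57BL/6 mice at 23 weeks of age. Every animal carried PyMT, a transgene that drives mammary tumours, together with floxed Tgfbr2 alleles. The control genotype, WT, was Tgfbr2fl/flPyMT, and the genotype KO was ThPOKCreTgfbr2fl/flPyMT, in which a Cre driven by ThPOK, a CD4 lineage factor, deletes the TGF-beta receptor gene in CD4+ T cells. IL4-/- was Il4-/-Tgfbr2fl/flPyMT and IL4-/-KO was Il4-/-ThPOKCreTgfbr2fl/flPyMT, so both lack the interleukin-4 gene in the whole animal and not in T cells alone. Each genotype had 2 replicates, and each KO replicate was sequenced as 2 libraries from the same RNA, here called the first and the repeat library and averaged. The series title concerns suppression of type 2 immunity to cancer by TGF-beta.

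The 10 libraries fell into 2 ranges of depth. Totals of 17121030 to 18479090 reads were found in WT and in the first libraries of KO, and the repeat KO, IL4-/- and IL4-/-KO libraries held 28003231 to 33802781 reads. The sorted cells carried Cd4 at 12165 to 40172 and Cd3e at 13302 to 32092 normalized counts in the 8 replicates, while a summed pair of CD8 genes lay between 115 and 1126. RNA of other tumour cells was also counted: 12 summed mammary and tumour epithelium genes ran from 12522 to 99435 in 7 replicates and reached 161680 in WT replicate 1, above its T cell core sum of 99686. The 9 T cell core genes found were all higher in the Tgfbr2-deleted cells over both backgrounds together, with a median log2 difference of 0.64. Tgfbr2 itself was still counted at 5803 to 9442 in the 4 KO libraries and at 7762 and 8205 in IL4-/-KO, against 7876 and 7894 in WT and 13816 and 12544 in IL4-/-. Counts over a whole gene do not show whether a floxed exon is gone. Il4 stood at 107 and 276 in WT, 236 to 523 in the KO libraries, 97.2 and 75.4 in IL4-/-, and 98.7 and 39.7 in IL4-/-KO, so reads of the gene persisted in the Il4-deficient animals. Whether a genotype's replicates are different mice is not given in the labels, and each p-value therefore reflects variation among the samples at hand, which may be technical. Because the samples were bulk RNA, fewer cells of a type and less RNA per cell cannot be told apart in any difference below.

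Helper T cells act on other cells largely through secreted cytokines. T cell receptor signals switch these genes on through NFAT, AP-1 and NF-kappaB, helper lineage factors such as T-bet set which of them respond, and TGF-beta is known as a brake on much of that output. Cytokine mRNAs are also short-lived: many carry AU-rich elements, repeats of the pentamer AUUUA, in the 3′ untranslated region (UTR), where decay proteins such as tristetraprolin, the product of Zfp36, bind.

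That element separates the members by sequence, and the densest window of 30 bases of each 3′ UTR is printed to show how far they differ. Each sequence is read on the transcribed strand, 5′ to 3′, from the GRCm38 (mm10) genome with GENCODE transcripts, and capitals mark ATTTA, the DNA spelling of the pentamer. ATTTA was searched on that strand only, and neighbouring motifs may share a base.
Csf2, chr11:54247320-54247349, minus strand: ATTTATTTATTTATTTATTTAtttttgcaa
Tnf, chr17:35199676-35199705, minus strand: ATTTAttATTTATTTAttATTTATTTAttt
Il2, chr3:37121038-37121067, minus strand: ATTTATTTAaatATTTAactttaATTTAtt
Ifng, chr10:118445335-118445364, plus strand: ATTTAttaatATTTAaaactATTTAtatgg
Lta, chr17:35203407-35203436, minus strand: ATTTAtggagagaaaagttaagttATTTAt
Il21, chr3:37223630-37223659, minus strand: ATTTAagacaatgtATTTAttttggtgtgt
Il10, chr1:131024397-131024426, plus strand: ATTTAttacctctgatacctcagttcccat
Il3, chr11:54265303-54265332, minus strand: atgccatcaaatgtcttatcaATTTAtcta

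Csf2 held 5 ATTTA motifs in its window and 9 in its 317-base 3′ UTR. Among 2108 UTRs within 25% of that length, 0.0474% had as many in one window. The window of Tnf also held 5, which 0.0336% of 2975 UTRs of like length reached. Il2 held 4, reached by 0.192% of 2605 such UTRs, and Ifng held 3, reached by 1.02% of 2742. By their densest window the other members were nearer to ordinary UTRs: Lta and Il21 had 2 in a window, as did 9.50% and 32.6% of UTRs of like length, Il10 and Il3 had 1, and the 156-base UTR of Ltb had none. Counted over the whole 706-base UTR, however, Il10 held 6, as many as 1.96% of UTRs of like length reached, against 6 in Ifng and 1.24%. Over all 20736 UTRs, 65.4% held the motif at all, 18.7% held 2 or more in a window and 2.55% held 3 or more. These are matches of letters and not measured sites of binding.

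Csf2 encodes GM-CSF, a growth and activation factor for macrophages, granulocytes and dendritic cells, and was the member with the clearest separation by Tgfbr2 genotype. The gene lies at chr11:54247271-54249667 on the minus strand. Its normalized counts were 173 and 154 in WT, 1921 and 2606 in KO, 42.1 and 137 in IL4-/-, and 1131 and 291 in IL4-/-KO. All 4 Tgfbr2-deleted replicates were therefore above all 4 Tgfbr2-sufficient replicates. Within the wild-type Il4 background the lowest KO replicate was 11.1 times the highest WT replicate, and the ratio of means was 13.8. Within the Il4-deficient background the ratio of means was 7.96, but the lowest IL4-/-KO replicate was only 2.13 times the highest IL4-/- replicate. The 2 libraries of each KO replicate gave 2158 and 1684 for replicate 1 and 3114 and 2099 for replicate 2, so every KO library was above every WT library. The reads behind these values ran from 52 in the lowest library to 2371 in the highest.

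**Figure D1:**
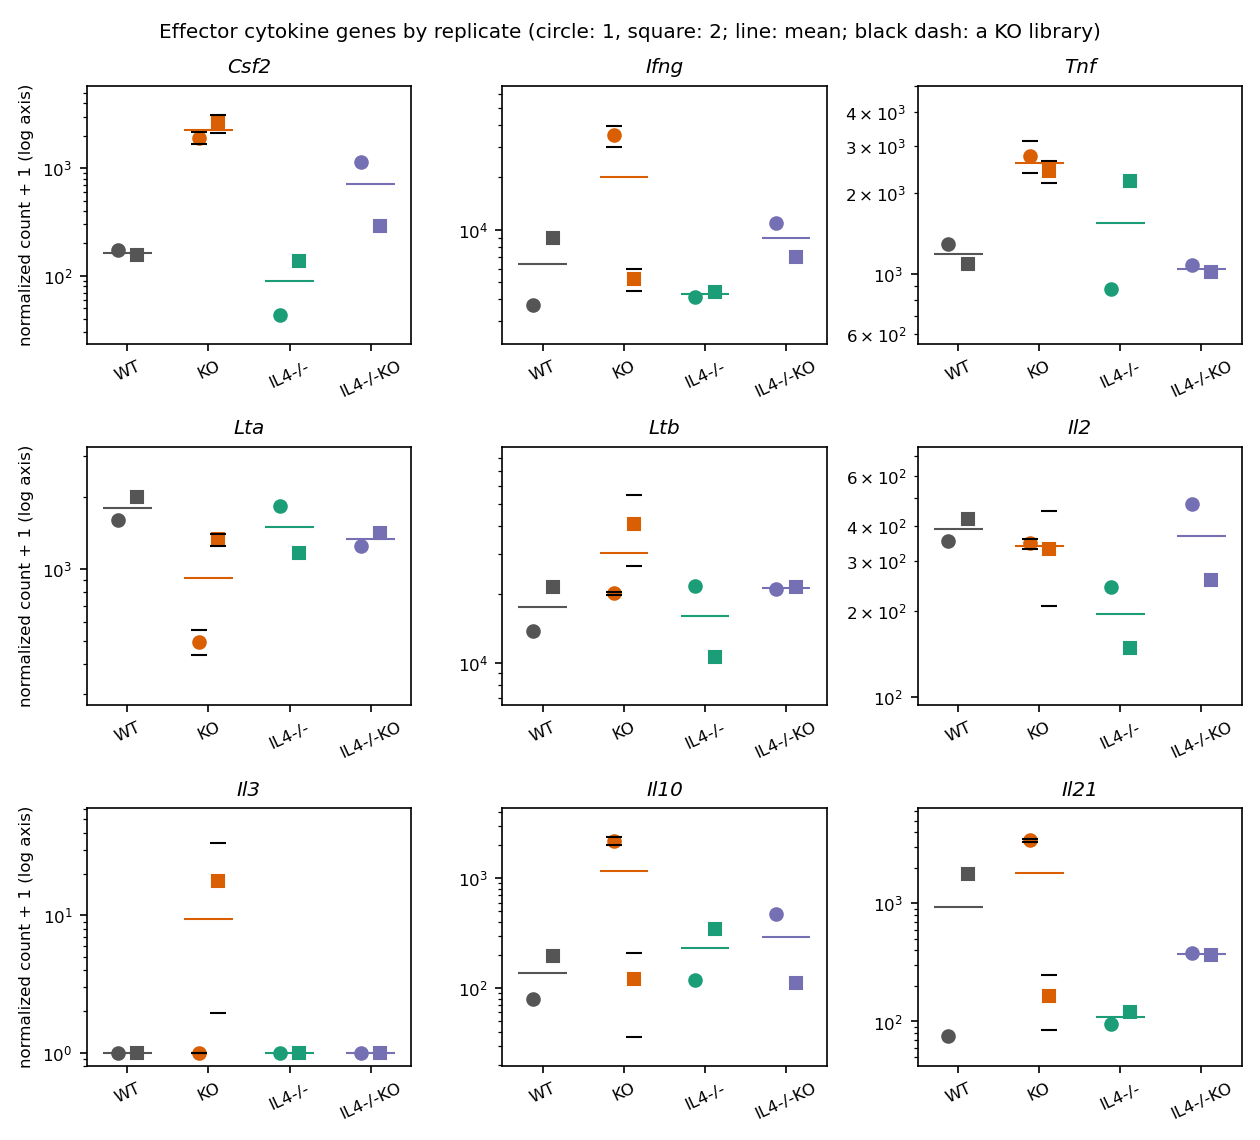
Normalized count plus 1 of each of the 9 cytokine genes (log axis) in the 2 replicates of WT, KO, IL4-/- and IL4-/-KO; circles are replicate 1, squares replicate 2, coloured lines the mean, and black dashes the 2 libraries of each KO replicate. Csf2 separates by Tgfbr2 genotype with KO at 1921 and 2606 against WT at 173 and 154, while Ifng, Il10 and Il21 in KO are split between a high replicate 1 and a low replicate 2.

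No member passed the threshold of an adjusted p under 0.05 in any of 7 comparisons with limma on log2(normalized count + 1). The background of such calls was small. KO vs WT called 1 of 14473 genes (0.00691%), the mean effect of Tgfbr2 deletion over both Il4 backgrounds called 3 (0.0207%), and the other 5 comparisons called 0%. Those 5 were IL4-/-KO vs IL4-/-, IL4-/-KO vs KO, IL4-/- vs WT, the interaction of both genotypes and the mean effect of Il4 deficiency, in which 471, 1687, 591, 510 and 1659 genes had an unadjusted p under 0.05. In them edgeR on reads recovered from the table called 0 genes, and DESeq2 on the same reads called 51, 386, 29, 35 and 312. The filter on low values passed 8 of the 9 members, all but Il3.

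For Csf2 the log2 fold change was 3.77 ± 0.79 (SE) in KO vs WT, with a limma adjusted p of 0.296 and a raw p of 0.00152. In IL4-/-KO vs IL4-/- it was 2.90 ± 0.79, with a limma adjusted p of 1.0. The mean over both backgrounds was 3.33 ± 0.56, higher in 4 of 4 deleted replicates, with a limma adjusted p of 0.215. Only 0.318% of the tested genes had a mean effect at least as high. Across the alternatives other than leaving out a replicate, the adjusted p of the mean effect ran from 4.62e-07 to 0.438, and the lower end was DESeq2. DESeq2 also called Csf2 in KO vs WT, at a log2 fold change of 3.76 and an adjusted p of 2.67e-04, and in IL4-/-KO vs IL4-/-, at 2.99 and 0.0338. The fold changes from limma and DESeq2 were close, and of the alternatives run only DESeq2 made the call.

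**Figure D2:**
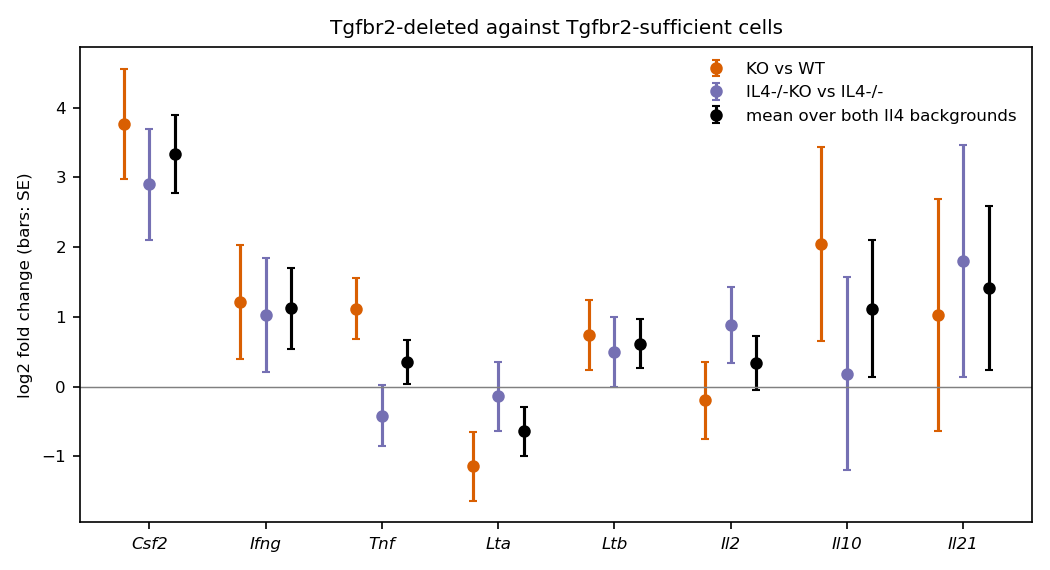
Log2 fold change with its SE (bars) for the 8 members tested by limma, Tgfbr2-deleted against Tgfbr2-sufficient cells, in KO vs WT (orange), in IL4-/-KO vs IL4-/- (purple) and as the mean over both Il4 backgrounds (black). Csf2 stands at 3.77, 2.90 and 3.33, Tnf lies at 1.12 and -0.42 on the 2 backgrounds, and Il10 and Il21 have the widest bars.

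The share of genes whose groups did not overlap gives the background for the separation of Csf2. In KO vs WT, 2 of the 8 tested members were higher without overlap, Csf2 and Tnf, against 17.5% of all tested genes, and 2 were lower without overlap, Lta and Il2, against 20.1%. In IL4-/-KO vs IL4-/-, 4 members were higher without overlap, Csf2, Ifng, Il2 and Il21, against 16.8%. Being higher without overlap in both of those comparisons was true of 5.67% of tested genes and, among the members, of Csf2. The stricter order, with all 4 deleted replicates above all 4 sufficient ones, was found in 432 tested genes, or 2.98%, and again in Csf2 alone of the members.

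Several other measurements moved with Csf2. Summed B cell and plasma cell genes, 6 of 8 listed, stood at 262 to 823 in the 4 sufficient replicates and 1794 to 2797 in the 4 deleted ones, also without overlap. In the deleted replicates most of that sum was Jchain, and the B cell gene Ms4a1 reached at most 43.7. The T cell core genes summed to 87597 to 158430 in the sufficient and 152980 to 203400 in the deleted replicates. In KO vs WT alone, other marker sums did not overlap either. Eosinophil genes were at 1.32 and 13.2 in WT against 65.0 and 119 in KO, neutrophil genes at 135 and 518 against 596 and 5856, and stroma and vessel genes at 1224 and 1619 against 2590 and 2762. Most of the eosinophil sum in KO was Ccr3, at 45.9 and 114. Most of the stroma and vessel sum was Pecam1, at 1324 and 1190 in WT against 2490 and 2178 in KO. These 2 sums therefore say little of the other genes listed in them. The CD8 sum was lower in KO, at 251 and 502 against 694 and 1126. So were the sums of innate lymphoid cell genes, at 10518 and 12455 against 15579 and 17564, and macrophage genes, at 14424 and 16529 against 17888 and 20772. In WT replicate 1, however, a single gene made up much of each of the last 2 sums. Kit was 9068 and 945 in WT against 591 and 1516 in KO. Cd14 was 16221 and 2396 in WT against 8121 and 3545 in KO. The lower sums therefore do not show that innate lymphoid or macrophage genes fell as a set. Of the CD8 pair, Cd8a did not overlap, at 227 and 783 in WT against 57.5 and 97.5 in KO. Cd8b1 did overlap, at 468 and 343 in WT against 193 and 405 in KO. The part of the T cell core genes in the Csf2 difference was tested only by rescaling. Per 10000 counts of the T cell core genes, Csf2 was 17.3 and 11.0 in WT, 94.5 and 140 in KO, 2.66 and 15.6 in IL4-/-, and 73.9 and 17.7 in IL4-/-KO. The lowest deleted replicate, 17.73, then barely cleared the highest sufficient one, 17.31. After this rescaling the log2 fold changes were 3.05 in KO vs WT, 2.47 in IL4-/-KO vs IL4-/- and 2.76 as the mean, where the median of all tested genes was shifted to -0.78, -0.45 and -0.65. The part of RNA from the other cell types named was not tested.

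**Figure D3:**
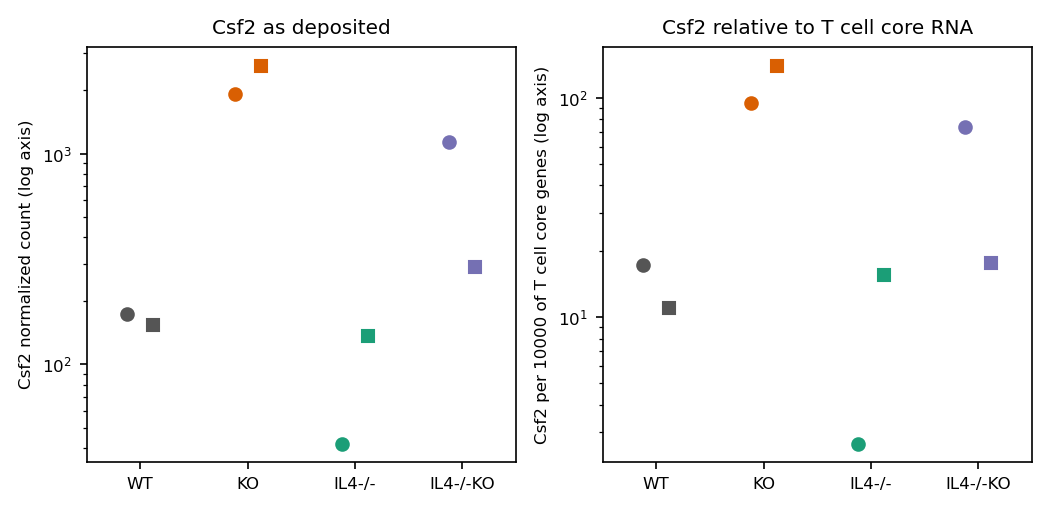
Csf2 in each replicate (circle 1, square 2) as the deposited normalized count (left) and per 10000 counts of 9 T cell core genes (right), both on log axes. KO stays far above WT on both scales, while IL4-/-KO replicate 2 falls from 291 against a highest sufficient value of 173 to 17.73 against 17.31.

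Depth matched the comparison for part of these values. With the first KO libraries alone, which have the depth of the WT libraries, Csf2 in KO vs WT had a log2 fold change of 3.98. Both genotypes of IL4-/-KO vs IL4-/- had the deeper libraries. Leaving out each replicate in turn gave 3.55 to 3.99 in KO vs WT, 1.92 to 3.88 in IL4-/-KO vs IL4-/- and 2.85 to 3.82 for the mean effect, whose limma adjusted p then ran from 0.161 to 0.605. The lowest of these, 1.92, came without IL4-/-KO replicate 1.

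Ifng, Il10 and Il21 varied widely between the KO replicates, and Il21 between the WT replicates as well. Ifng encodes interferon-gamma, the main macrophage-activating product of type 1 helper cells, and lies at chr10:118441046-118445892 on the plus strand. It stood at 3733 and 9012 in WT, 34790 and 5209 in KO, 4129 and 4429 in IL4-/-, and 10903 and 6971 in IL4-/-KO. KO replicate 1 was the highest of all, and KO replicate 2 lay inside the WT range. The gap between the KO replicates was 6.68-fold, and 9.08% of tested genes had a gap at least as large, with a median gap of 1.63-fold over all tested genes. The 2 libraries of KO replicate 1 gave 39579 and 30000 and those of KO replicate 2 gave 5982 and 4437, so both libraries of each RNA showed the split.

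Il10 encodes interleukin-10, which restrains antigen-presenting cells, and lies at chr1:131019845-131024974 on the plus strand. It stood at 79.0 and 195 in WT, 2193 and 121 in KO, 117 and 347 in IL4-/-, and 476 and 110 in IL4-/-KO. Il21 encodes interleukin-21, a helper factor for B cells and CD8+ T cells, and lies at chr3:37222759-37232636 on the minus strand. It stood at 75.1 and 1785 in WT, 3419 and 164 in KO, 94.0 and 120 in IL4-/-, and 382 and 367 in IL4-/-KO. For both genes KO replicate 1 was again high in both of its libraries, at 2361 and 2025 for Il10 and 3309 and 3528 for Il21, and WT replicate 2 shared the high level for Il21 only. The KO gap was 17.9-fold for Il10 and 20.7-fold for Il21, and the WT gap was 23.5-fold for Il21. In KO replicate 2 the libraries themselves disagreed, with Il10 at 207 and 34.995 and Il21 at 246 and 83.2.

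In KO vs WT the log2 fold change was 1.21 ± 0.82 (SE) for Ifng, 2.05 ± 1.39 for Il10 and 1.03 ± 1.66 for Il21, with limma adjusted p of 0.585, 0.586 and 0.847. Without KO replicate 1 the same comparison gave -0.15 for Ifng, -0.04 for Il10 and -1.16 for Il21, and without WT replicate 1 Il21 was at -1.25. In IL4-/-KO vs IL4-/-, where Ifng and Il21 did not overlap between the genotypes, the log2 fold changes were 1.03 ± 0.82 for Ifng, 0.19 ± 1.39 for Il10 and 1.81 ± 1.66 for Il21, each with a limma adjusted p of 1.0. The mean effect of Tgfbr2 deletion was 1.12 ± 0.58 for Ifng, 1.12 ± 0.98 for Il10 and 1.42 ± 1.18 for Il21, with limma adjusted p of 0.553, 0.708 and 0.691. KO replicate 1 also stood apart in summed neutrophil genes, 5856 against 109 to 873 in the other 7 replicates, and the part of that RNA in its cytokine levels was not tested.

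Tnf, Lta and Ltb are TNF family genes that sit beside each other on chromosome 17 with no protein-coding gene between them. Lta and Tnf are 1157 bases apart and Tnf and Ltb 3060 bases apart. Despite that closeness they followed different orders over the genotypes. Tnf encodes tumour necrosis factor, a central inflammatory cytokine, and lies at chr17:35199381-35202007 on the minus strand. It stood at 1288 and 1091 in WT, 2755 and 2410 in KO, 875 and 2227 in IL4-/-, and 1075 and 1018 in IL4-/-KO. KO was above WT and above IL4-/-KO without overlap, and its replicates lay within 1.14-fold of each other. The log2 fold change was 1.12 ± 0.44 (SE) in KO vs WT, with a limma adjusted p of 0.392, and -0.42 ± 0.44 in IL4-/-KO vs IL4-/-, with a limma adjusted p of 1.0. The interaction of the genotypes was -1.54 ± 0.62, with a raw p of 0.0401 and a limma adjusted p of 0.988, and was -2.21 without IL4-/- replicate 1 and -0.86 without IL4-/- replicate 2.

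The higher IL4-/- replicate, 2227, was also the replicate with 113600 summed counts of 14 macrophage and monocyte genes, against 9443 to 20772 in the other 7 replicates, and macrophages transcribe Tnf too. Its part was not tested, and without that replicate IL4-/-KO vs IL4-/- turned from -0.42 to 0.26. Rescaled to T cell core RNA, Tnf was 129 and 78.0 in WT against 136 and 129 in KO, which cut the log2 fold change of KO vs WT from 1.12 to 0.40, with the median of all genes at -0.78.

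Lta encodes lymphotoxin-alpha, which with lymphotoxin-beta directs lymphoid tissue organization, and lies at chr17:35203165-35205351 on the minus strand. It stood at 1602 and 2011 in WT, 494 and 1331 in KO, 1840 and 1170 in IL4-/-, and 1249 and 1417 in IL4-/-KO. Both KO replicates were below both WT replicates, and KO replicate 1 was the lowest of all 8. The log2 fold change was -1.14 ± 0.49 (SE) in KO vs WT, with a raw p of 0.0495 and a limma adjusted p of 0.412, and -0.14 ± 0.49 in IL4-/-KO vs IL4-/-. Without KO replicate 1 the first of these was -0.43. On the deposited scale Lta was thus the only tested member whose mean effect of Tgfbr2 deletion was below 0, at -0.64 ± 0.35 with a limma adjusted p of 0.567. Rescaled to T cell core RNA, Tnf at -0.22 and Il2 at -0.23 had mean effects below 0 as well. Lta was then at -1.86 in KO vs WT and -0.57 in IL4-/-KO vs IL4-/-, with the medians of all genes at -0.78 and -0.45.

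Ltb encodes lymphotoxin-beta, the membrane anchor of the lymphotoxin heterotrimer, and lies at chr17:35194439-35196320 on the plus strand. It stood at 13750 and 21527 in WT, 20247 and 40738 in KO, 21699 and 10612 in IL4-/-, and 21059 and 21676 in IL4-/-KO. The genotypes overlapped in both comparisons of Tgfbr2-deleted with sufficient cells. KO replicate 2, the highest, came from libraries at 26779 and 54697. The log2 fold change was 0.74 ± 0.50 in KO vs WT and 0.49 ± 0.50 in IL4-/-KO vs IL4-/-, with limma adjusted p of 0.585 and 1.0. Per 10000 counts of the T cell core genes, Ltb was 1379 and 1539 in WT against 995 and 2186 in KO. This rescaling cut the 2 log2 fold changes to 0.02 and 0.07, with the medians of all genes at -0.78 and -0.45.

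Il2 encodes interleukin-2, the T cell growth factor, and lies at chr3:37120523-37125959 on the minus strand, 96799 bases from Il21 with no protein-coding gene between. It stood at 353 and 422 in WT, 345 and 329 in KO, 241 and 148 in IL4-/-, and 474 and 256 in IL4-/-KO. The KO means of 345 and 329 lay below both WT values, but the libraries of KO replicate 2 were 449 and 208, on either side of them. The log2 fold change was -0.20 ± 0.55 (SE) in KO vs WT and 0.88 ± 0.55 in IL4-/-KO vs IL4-/-, with limma adjusted p of 0.920 and 1.0. The interaction was 1.08 ± 0.78, with a limma adjusted p of 0.988.

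Il3 encodes interleukin-3, a growth factor for basophils and mast cells, and lies at chr11:54265303-54267277 on the minus strand, 15635 bases from Csf2 with no protein-coding gene between. It had 0 reads in 8 of 10 libraries. The first library of KO replicate 2 held 25 reads, or 32.8 normalized counts, and the repeat library of the same RNA held 1 read, or 0.946. A count of 0 allowed up to 3 reads, equal to 1.93 to 4.41 normalized counts in these libraries. That limit, like any counting interval here, covers counting error only, since the kit adds no molecular identifiers. Il3 did not pass the filter and was not tested, so at this depth the neighbour of Csf2 gave a signal in a single RNA sample.

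Levels can be compared between genes only per length of transcript. As normalized counts per kilobase averaged over the 8 replicates, Ltb was highest at 18460 and Ifng followed at 8193. Csf2 at 1009, Lta at 1004 and Tnf at 972 came next, and Il10 at 347, Il2 at 281 and Il21 at 261 after them, with Il3 at 3.36. The ranges over replicates overlapped between every pair of neighbours in this order. From the lowest to the highest replicate, Csf2 spanned 61.9-fold, from 52.7 to 3258 per kilobase, Il21 45.5-fold and Il10 27.7-fold. Ifng spanned 9.32-fold, and Lta, Ltb, Il2 and Tnf between 3.15 and 4.07-fold. By genotype, Csf2 averaged 204 per kilobase in WT, below each of Lta, Tnf, Il2 and Il21, and 2830 in KO, above them all. The WT replicates of Il21 were split, at 24.4 and 581 per kilobase, against 216 and 193 for Csf2.

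Over the 8 tested members, 6 were higher and 2 lower in KO vs WT, with a median log2 fold change of 1.07, where the median of all tested genes was -0.07. In IL4-/-KO vs IL4-/- the split was also 6 and 2, with a median of 0.69 against -0.03 for all genes. For the mean effect it was 7 and 1, with a median of 0.87 against -0.08. None of these 8 genes passed limma's test, and without KO replicate 1 Ifng, Il10 and Il21 lay below 0 in KO vs WT. Quantile normalization gave 7 higher and 1 lower in KO vs WT, since Il2 crossed 0. T cell core scaling gave 5 higher and 3 lower both in IL4-/-KO vs IL4-/- and for the mean effect, although 6 and 7 of the 8 stayed above the shifted median of all genes.

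The effect of Il4 deficiency was read in IL4-/-KO vs KO and in IL4-/- vs WT. Csf2 was lower in IL4-/-KO than in KO without overlap, at 1131 and 291 against 1921 and 2606, with a log2 fold change of -1.96 ± 0.79 (SE) and a limma adjusted p of 0.408. With the repeat KO libraries alone, which share the depth of IL4-/-KO, it was -1.71. Leaving out IL4-/-KO replicate 1 gave -2.94 and leaving out IL4-/-KO replicate 2 gave -0.98. Tnf was lower without overlap too, at -1.30 ± 0.44 with a limma adjusted p of 0.365. Lower without overlap was also the state of 23.3% of all tested genes. In IL4-/- vs WT, Csf2 and Il2 were lower without overlap, as were 14.6% of tested genes, with log2 fold changes of -1.09 ± 0.79 and -1.03 ± 0.55 and limma adjusted p of 1.0. All WT libraries were shallow and all IL4-/- libraries deep, so these libraries alone cannot tell genotype from depth. With a depth term, which rests on the KO RNAs sequenced at both depths, Csf2 in IL4-/- vs WT was -0.63 in place of -1.09. It was -0.26 without IL4-/- replicate 1 and -1.93 without IL4-/- replicate 2. These comparisons share their KO and WT samples with those above. The interaction for Csf2 was -0.87 ± 1.12, with a limma adjusted p of 0.991, and was 0.11 without IL4-/-KO replicate 2, so a smaller Csf2 response on the Il4-deficient background was not established. Over both Tgfbr2 states, 7 of the 8 tested members had a mean effect of Il4 deficiency below 0, with a median of -0.51 against -0.02 for all genes, and Lta was the exception at 0.21 ± 0.35. Csf2 was at -1.53 ± 0.56 with a limma adjusted p of 0.389. It was -1.17 with the depth term and ran from -2.02 to -1.04 on leaving out a replicate.

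Genes around the cytokines were read from 7 lists, and none of their members passed limma's threshold in any comparison. DESeq2 called 14 of the 41 list gene results named here. Of all 14473 tested genes it called 527 in KO vs WT, 51 in IL4-/-KO vs IL4-/- and 331 for the mean Tgfbr2 effect. The list genes were named by smallest p, so the 2 shares cannot be compared. In the comparisons by Tgfbr2 genotype, T cell core scaling shifted the list medians down with the median of all genes, so the counts below are of directions on the deposited scale. Among 15 cytokine receptor genes, 11 were higher and 4 lower in KO vs WT, with a median log2 fold change of 1.10, and 8 were higher and 7 lower in IL4-/-KO vs IL4-/-, with a median of 0.09. Il10ra, the ligand-binding chain for interleukin-10, was 1676 and 2619 in WT and 5197 and 6768 in KO, a log2 fold change of 1.501 ± 0.354 (SE). In IL4-/-KO vs IL4-/- its log2 fold change was 0.30 ± 0.35. Il2ra, which encodes CD25, the marker these cells were sorted as lacking, was 400 and 1089 in WT, 4201 and 1636 in KO, 1717 and 1896 in IL4-/-, and 4053 and 2430 in IL4-/-KO. Its log2 fold change in KO vs WT was 1.99 ± 0.60, with a limma adjusted p of 0.349, and ran from 1.27 without WT replicate 1 to 2.71 without WT replicate 2. Ifngr2, the signalling chain for interferon-gamma, was lower without overlap in both backgrounds, at 3109 and 2044 in WT against 505 and 1700 in KO, and 1739 and 2337 in IL4-/- against 567 and 986 in IL4-/-KO. Its mean effect was -1.44 ± 0.42, with a limma adjusted p of 0.394. Csf2rb2, a mouse receptor subunit for interleukin-3, was 82.6 and 381 in IL4-/- and 35.6 and 0 in IL4-/-KO, where the higher IL4-/- value is again from the replicate rich in macrophage genes.

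Among 20 transcription regulators, 14 were higher and 6 lower in KO vs WT, with a median of 0.32, and 12 and 8 in IL4-/-KO vs IL4-/-, with a median of 0.04. Batf, an AP-1 family factor of effector T cells, was 1400 and 1504 in WT, 11835 and 5012 in KO, 1886 and 1147 in IL4-/-, and 3746 and 3357 in IL4-/-KO. All 4 deleted replicates were above all 4 sufficient ones, as for Csf2, and its mean effect was 1.84 ± 0.31 with a limma adjusted p of 0.215. Tbx21, which encodes T-bet, a driver of Ifng, was 2787 and 9708 in WT, 13340 and 14205 in KO, 4256 and 4670 in IL4-/-, and 10174 and 12626 in IL4-/-KO, for a mean effect of 1.37 ± 0.37 and a limma adjusted p of 0.372. Tbx21 was thus high in KO replicate 2, where Ifng was 5209.

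Regulators of mRNA decay, the proteins that read the AU-rich and stem-loop elements of cytokine transcripts, were counted the same way. Of 8, 3 were higher and 5 lower in KO vs WT, with a median of -0.36, and 2 and 6 in IL4-/-KO vs IL4-/-, with a median of -0.34. Zc3h12a, which encodes the RNase Regnase-1, was 839 and 766 in WT and 4081 and 2654 in KO, a log2 fold change of 2.04 ± 0.44, but 1116 and 2079 in IL4-/- and 1060 and 597 in IL4-/-KO, a log2 fold change of -0.94 ± 0.44. Rc3h2, which encodes Roquin-2, was 732 and 1623 in WT and 549 and 290 in KO, at -1.45 ± 0.49. In IL4-/-KO vs IL4-/- Rc3h2 was at -0.16 ± 0.49. Zfp36, which encodes tristetraprolin, was 7868 and 24614 in IL4-/- and 7670 and 6718 in IL4-/-KO, narrowly without overlap and at -0.96 ± 0.70. The value of 24614 is from the replicate rich in macrophage genes, whose part was not tested. On leaving out a replicate the log2 fold change ran from -1.78 to -0.13. In KO vs WT Zfp36 overlapped, at 41307 and 10848 against 18712 and 19363. Zfp36l1, its relative, had a mean effect of -0.61 ± 0.27, with a limma adjusted p of 0.514.

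The remaining lists concern the signals that cytokines send. All 8 NF-kappaB feedback genes were higher in KO vs WT, with a median of 1.43, and 6 had an unadjusted p under 0.05, as did 5.19% of all tested genes in that direction. Quantile normalization gave 7 higher and 1 lower. T cell core scaling gave 6 and 2, with a list median of 0.71, although all 8 stayed above the shifted median of all genes. In IL4-/-KO vs IL4-/- the split was 4 and 4, with a median of 0.06. Relb, a subunit of the non-canonical pathway, was 1632 and 2058 in WT, 5354 and 5327 in KO, 2394 and 2587 in IL4-/-, and 3180 and 2574 in IL4-/-KO, for log2 fold changes of 1.54 ± 0.27 and 0.20. Traf1, a TNF receptor adaptor, had 1.57 ± 0.31 in KO vs WT and 0.28 ± 0.31 in IL4-/-KO vs IL4-/-. Icam1, an adhesion molecule, had 1.66 ± 0.50 and 0.49 ± 0.50 in the same order. Of 17 interferon-gamma response genes, 8 were higher and 9 lower in KO vs WT, with a median of -0.21, and 9 and 8 in IL4-/-KO vs IL4-/-, with a median of 0.09. The immunoproteasome subunit Psmb9 had a mean effect of 0.89 ± 0.26 and its partner Psmb8 of 0.66 ± 0.28, with limma adjusted p of 0.389 and 0.505. The peptide transporter Tap1 had 0.89 ± 0.37 in KO vs WT and 0.33 ± 0.37 in IL4-/-KO vs IL4-/-.

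Of 10 STAT5 response genes, a list that includes Lta, 7 were higher and 3 lower in KO vs WT, with a median of 0.86, and 3 and 7 in IL4-/-KO vs IL4-/-, with a median of -0.37. The survival kinase gene Pim1 was at 1.78 ± 0.43 in the former and -0.07 ± 0.43 in the latter. The feedback inhibitors Cish and Socs3 were at 0.95 ± 0.37 and 1.24 ± 0.48 in KO vs WT. In IL4-/-KO vs IL4-/- they were at -0.90 ± 0.37 and -0.72 ± 0.48. Socs3 was 4137 and 9352 in IL4-/-, the higher from the replicate rich in macrophage genes, against 3848 and 3726 in IL4-/-KO. That Socs3 change ran from -1.30 to -0.13 on leaving out a replicate. Of 20 other helper cytokines and chemokines, 19 passed the filter, and 11 were higher and 8 lower in KO vs WT, with a median of 0.50, against 7 and 12 in IL4-/-KO vs IL4-/-, with a median of -0.31. Ccl5, a T cell attracting chemokine, had a mean effect of 1.70 ± 0.45, and Tnfsf11, which encodes RANKL, the osteoclast factor, of -1.42 ± 0.29, with limma adjusted p of 0.372 and 0.266. Tnfsf11 was 2259, 2961, 3233 and 3276 in the sufficient replicates and 1152, 1145, 1562 and 669 in the deleted ones, without overlap. Tgfb1, the ligand gene, had 1.65 ± 0.28 in KO vs WT and -0.41 ± 0.28 in IL4-/-KO vs IL4-/-. Tnfsf14, which encodes LIGHT, had 0.68 ± 0.43 and 1.59 ± 0.43 in the same order.

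**Figure D4:**
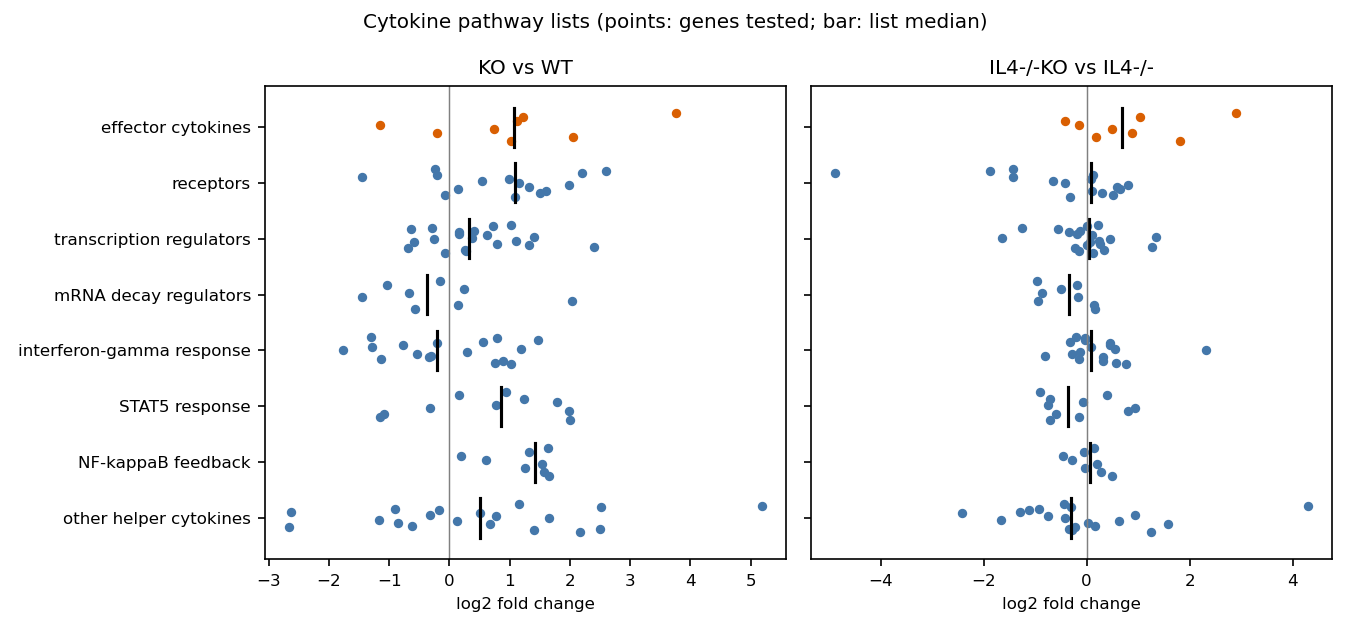
Log2 fold change of every tested gene (points) in the effector cytokines (orange) and 7 related lists (blue), with the list median as a black bar, in KO vs WT (left) and IL4-/-KO vs IL4-/- (right). In KO vs WT the medians of the effector cytokines, receptors and NF-kappaB feedback genes lie at 1.07, 1.10 and 1.43; in IL4-/-KO vs IL4-/- those of the last 2 lie at 0.09 and 0.06, and the cytokines at 0.69.

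The genes most like each member were ranked by Pearson r of log2 values over the 8 replicates, among 11818 genes with a mean of at least 50 normalized counts. These values describe replicates that share genotype and depth. For Csf2 the closest were Cpne2 at 0.97, Coq8a at 0.96, Mta2 at 0.95, Ccdc184 at 0.95 and Nt5m at 0.94. Coq8a, for example, was 822 and 873 in WT, 2094 and 2208 in KO, 532 and 798 in IL4-/-, and 1414 and 1434 in IL4-/-KO, so it followed the genotype order of Csf2 over a much narrower range. For Ifng the closest were Serpina3f at 0.97 and Gem at 0.96, both highest in KO replicate 1, at 10095 and 10476. For the rest, the closest pairs were Wnt4 at 0.95 and Sbno2 at 0.94 for Tnf, Usp11 at 0.95 and Btbd6 at 0.93 for Lta, and Rbck1 at 0.97 and Ccm2 at 0.97 for Ltb. They were 1110004E09Rik at 0.91 and Lockd at 0.91 for Il2, Tnip2 at 0.97 and Rab11fip1 at 0.96 for Il10, and Cerkl at 0.94 and Dnajb11 at 0.93 for Il21. Among the members themselves, Ifng was closest to Il21 at 0.91 and Il10 at 0.88, and Lta ran against Il10 at -0.86 and Ifng at -0.78. KO replicate 1 was the highest of the 8 replicates for Ifng, Il10 and Il21 and the lowest for Lta. The part of that replicate in these r values was not tested. Csf2 reached at most 0.61, with Tnf, and -0.64 with Lta.

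In the annotation, 6 of the 9 members overlap another gene, and whether the counting used strand is not given in the sources used here. The overlapping genes in the table were low, with Mir6974 within Lta at up to 2.64, Mir6973a within Ltb at up to 44.1 and Adad1 over Il2 at up to 10.6 normalized counts. Gm12223 over Csf2, Gm49751 over Ifng and Gm12534 over Il21 were not among the named genes of the table. Reads of those genes therefore cannot be told apart from the members' own.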

How the data were processed

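The deposited table held normalized counts as a signal per gene, which the authors made from read counts divided by 1 size factor per library, as the values themselves show: 100% came back as whole reads within 0.001. Per the submitters' processing notes, bcl2fastq 2.18.0, STAR, DESeq2 and mm10 were used; the read counter, annotation, filter and strand are not given in the sources used here. Per the labels' protocols, cDNA was made with SMART-Seq v4. The 7 rows without a gene name, 0.00290% to 0.0205% of reads, were left out. KO libraries were averaged per replicate. The 14473 genes that reached 10 normalized counts in 2 or more of the 8 replicates were tested on log2(value + 1), with all 4 genotypes in one model, by limma 3.58.1 with a variance trend and Benjamini-Hochberg adjustment at 0.05; 4 residual degrees of freedom remained. A fold change on this scale understates that of low genes. edgeR 4.0.16 and DESeq2 1.42.0 (R 4.3.3) were run on the recovered reads. The scripts were checked on simulated data. Named genes were all 9 members, then per list at most 2 genes per comparison by smallest p, and the most alike genes by Pearson r. Members and lists were chosen with earlier results of these data known. Figures used matplotlib 3.10.9.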

Additional observations from a re-analysis of the deposited data

Results flagged for a closer look

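Among the 31 tested members and named list genes, 5 had groups that did not overlap and lay in opposite directions on the 2 Il4 backgrounds. Of all tested genes, 3.70% did the same, and since the list genes were named by their p in these comparisons the 2 shares cannot be compared. The difference was tested as the interaction of both genotypes and none passed limma's threshold. Il2 had an interaction of 1.08 on the log2 scale, with the KO replicates below WT and the IL4-/-KO replicates above IL4-/-. Both separations of Il2 were narrow. Its lowest IL4-/-KO replicate was 1.06 times its highest IL4-/- replicate, and the first library of KO replicate 2, at 449, was above both WT values. The other 4 ran the opposite way, higher in KO than WT and lower in IL4-/-KO than IL4-/-: Cish at -1.85, Socs3 at -1.95, Tgfb1 at -2.065 and Zc3h12a at -2.97. For Socs3 the higher IL4-/- value, 9352, was from the replicate rich in macrophage genes, and the other, 4137, lay close to 3848 and 3726 in IL4-/-KO. With 2 replicates per genotype, no replicate could be tested as standing apart within its group.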

How the results depend on the processing

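Each of 30 member results and 41 list gene results was recomputed under 26 settings, 8 of which left out a replicate, where the setting gave a value. Of 769 member values, 750 kept their direction and their side of the threshold, 16 reversed and 3 gained a call. Of 1052 list gene values, 1037 kept both, 14 gained a call and 1 reversed. Many of these values could not move, since a replicate outside the 2 compared genotypes does not enter their fold change. The choice of KO library likewise cannot move the fold change of IL4-/-KO vs IL4-/-. None of these genes passed limma's threshold as reported, so keeping its side meant staying uncalled. The shares that stayed the same therefore overstate how stable the results are. Fits on the compared genotypes alone give no interaction or mean effect. Of 179 counts of called genes, 139 stayed within 1.5 times the count reported. A reported 0 that stayed 0 was taken as within that range. Most comparisons reported 0 calls, so this share too overstates stability.

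DESeq2 moved all 7 counts, to 527 in KO vs WT, 51 in IL4-/-KO vs IL4-/-, 386 in IL4-/-KO vs KO, 29 in IL4-/- vs WT, 35 for the interaction, 331 for the mean Tgfbr2 effect and 312 for the mean Il4 effect, and called Csf2 at 3.76, 2.99 and 3.38 in KO vs WT, IL4-/-KO vs IL4-/- and the mean. KO vs WT, with 1 call, had 2 under quantile normalization, without the variance trend, with all 10 libraries and with a term for depth, 19 with the epithelial gene mean as a covariate, and 0 with the compared genotypes only, the repeat KO libraries only, edgeR or T cell core scaling, and 0 to 0 leaving out a replicate. IL4-/-KO vs IL4-/- had 1 under quantile normalization, with all 10 libraries and with KO replicate 2 by its first library. The mean Tgfbr2 effect, with 3, had 8 under quantile normalization, 7 with all 10 libraries, 43 with the epithelial covariate, 1 with T cell core scaling, 0 without the variance trend and 0 to 4 leaving out a replicate. The mean Il4 effect had 4 with the first KO libraries only and with the depth term, and 94 with the epithelial covariate. The depth term, T cell core scaling, epithelial covariate and the choice of the first library were added after seeing the data. The cause of these moves was not tested.

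Leaving out a replicate, values ran from -1.85 to 0.11 for the Csf2 interaction. In KO vs WT they ran from -0.15 to 2.58 for Ifng, -0.036 to 4.13 for Il10 and -1.25 to 3.31 for Il21. In IL4-/-KO vs IL4-/- they ran from -1.09 to 0.26 for Tnf, -0.47 to 0.19 for Lta, -0.022 to 1.01 for Ltb and -0.86 to 1.24 for Il10. Il2 in KO vs WT was 0.042 under quantile normalization and 0.028 with KO replicate 2 by its first library. T cell core scaling gave mean Tgfbr2 effects of -0.22 for Tnf and -0.23 for Il2, and -0.24 for Il10 and -0.14 for Traf1 in IL4-/-KO vs IL4-/-, where the epithelial covariate gave -0.52 for Il10.

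The replicate numbers only name samples: same-numbered replicates deviated with correlations from -0.358 to 0.236. With the replicate block, KO vs WT had 0 calls and the mean Tgfbr2 effect 2.

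Every gained call came from DESeq2. With 2 replicates per genotype and libraries of 2 depths, a difference as large as that of Csf2 missed limma's threshold, so a p above 0.05 here does not show that a cytokine was alike between genotypes.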
